A study of Mus musculus with 2 samples.

Results

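A set of 10 genes of the circadian clock, Clock, Npas2, Per1, Per2, Per3, Cry1, Cry2, Dbp, Tef and Bhlhe40, was followed in mouse skeletal muscle with and without the histone demethylase Jhdm2a. They were listed by name, with earlier results of these data known, and every probe set annotated to exactly 1 of these symbols was used. This gave 24 probe sets for 10 genes, out of 34945 probe sets for 18193 genes with a single symbol on the array. No probe set with several symbols named any of these genes. The set serves as a check on the time at which tissue was taken, because clock transcripts cycle daily. The sources used here name no collection time.

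The study hybridised 2 Affymetrix 430 2 arrays, 1 with skeletal muscle RNA of wild-type mice (the control array) and 1 with that of Jhdm2a null mice (the null-labelled array). Each array carried RNA combined from 3 male mice aged 3 months, and the sources used here do not name the muscle. The strain label for both groups names 129 embryonic stem cells and a backcross onto C57BL/6 for 4 generations, so 129 sequence can remain around the disrupted gene. Jhdm2a, now named Kdm3a, removes methyl marks from lysine 9 of histone H3. With 1 pooled array per genotype there are no replicates, no test was possible, and every difference below describes these 2 arrays only.

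The clock is a transcriptional loop found in almost every cell. CLOCK, or its relative NPAS2, pairs with BMAL1 (gene Arntl) and binds E-box sequences in the Per, Cry, Dbp, Tef and Bhlhe40 genes. The PER and CRY proteins then block their own activator, while the receptors REV-ERB (Nr1d1, Nr1d2) and ROR act on Arntl, Nfil3, Clock, Npas2 and Cry1. DBP, TEF and HLF are activators that bind D-box sequences, and NFIL3 represses through the same sites. In mouse tissues Dbp, Nr1d1 and the Per genes are known to peak from the light phase to around dusk. Arntl and Npas2 are known to peak late at night, so a shift in sampling time can move these arms in opposite directions.

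The E-box and the D-box are shown here because they are the letters through which these genes are wired to each other. RefSeq promoter windows (GRCm38.p6) were available for 8 of the 10 genes, with 12 annotated start sites, and the 250 bases before each start were searched on both strands. Bhlhe40 and Per2 had no entry. The E-box was spelled CACGTG, a near variant CACGTT, and the D-box TTATGTAA or TTACGTAA. The matches of different spellings did not overlap in these windows. In the lines below, capitals mark the matches, and all sequences run 5′ to 3′ on the strand of the gene.
Cry1, chr10:85185089-85185153, minus strand: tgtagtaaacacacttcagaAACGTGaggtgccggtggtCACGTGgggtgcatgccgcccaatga
Per1, chr11:69098763-69098808, plus strand: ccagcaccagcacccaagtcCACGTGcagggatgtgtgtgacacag
Tef, upstream start, chr15:81802526-81802571, plus strand: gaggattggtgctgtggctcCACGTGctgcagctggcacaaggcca
Tef, downstream start, chr15:81811256-81811301, plus strand: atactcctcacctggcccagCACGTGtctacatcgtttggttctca
Per3, chr4:151044796-151044890, minus strand: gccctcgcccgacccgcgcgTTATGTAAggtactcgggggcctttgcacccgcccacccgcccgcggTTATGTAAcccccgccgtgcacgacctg

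An E-box lay upstream of 3 genes, Cry1, Per1 and Tef. Counted back from the start site, its first base stood at -60 in Cry1, at -166 in Per1, and at -127 and -138 before the 2 starts of Tef. Cry1 also held the near variant at -79, on the opposite strand, and Cry2 held it at -166. Per3 held 2 D-boxes, at -205 and -158. Over all 32851 windows of the same length, 6.02% held the E-box, 3.85% the near variant and 0.931% the D-box. These matches describe letters in a window, and no binding was measured.

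Of the 9 clock genes that could be measured, 8 read within 1.5-fold on both arrays. A probe set was counted as measured when it lay above a signal floor of 182 on both. Each gene was given the average log2 ratio, null-labelled over control, across its measured probe sets. By this rule 9 of the 10 genes entered, through 14 of the 24 probe sets. Their median log2 ratio was 0.029, beside 0.041 over all 9696 measured genes, and its sign turned in 3 of 9 alternative settings. Bhlhe40 was at least 1.5-fold lower, none was at least 1.5-fold higher, and the other 8 lay within 1.5-fold. Among all measured genes 9.73% were at least 1.5-fold apart, 3.38% higher and 6.34% lower, so 1 gene of 9 is near the background.

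**Figure D1:**
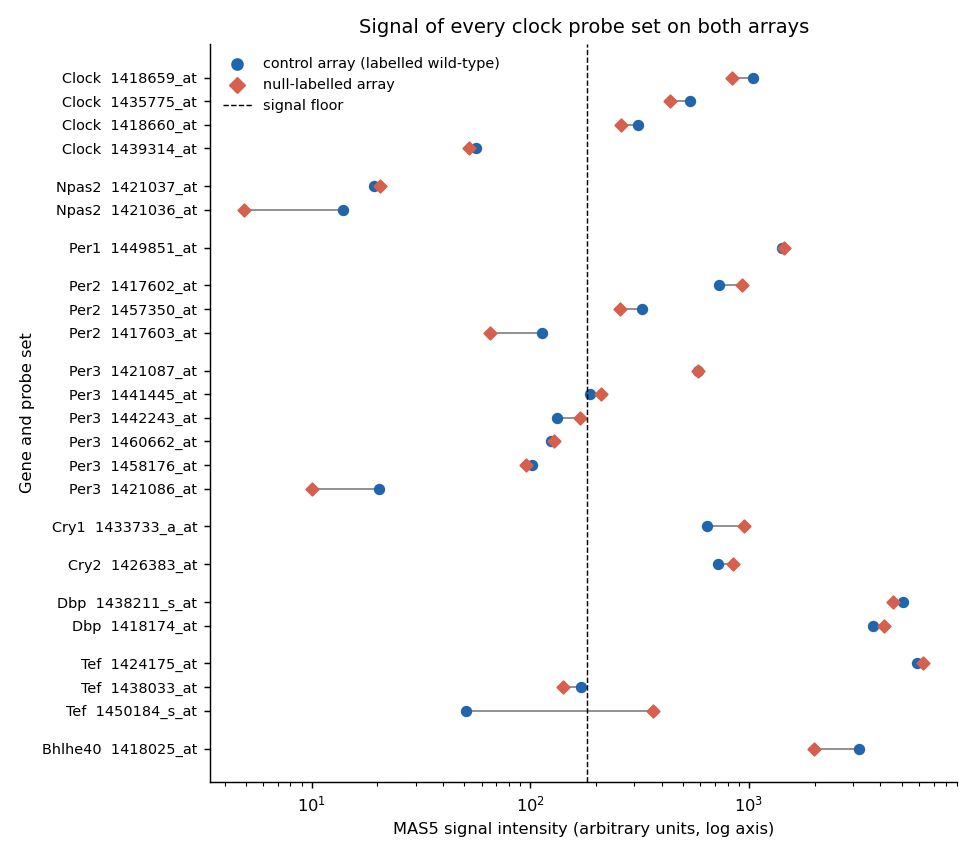
MAS5 signal (arbitrary units, log axis) of each of the 24 clock probe sets on the control array (circles) and the null-labelled array (diamonds), with the signal floor of 182 dashed. The pairs of Per1, Dbp and the brightest Tef probe set nearly coincide, Bhlhe40 lies lower and Cry1 higher on the null-labelled array, and both Npas2 probe sets lie far under the floor.

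The activators differed in how well they could be read. Clock encodes the DNA-binding partner of BMAL1. Probe set 1418659_at gave 1043 on the control array against 841 on the null-labelled one, 1435775_at read 536 and 437, and 1418660_at read 311 and 259. All 3 were lower on the null-labelled array and by almost the same amount, averaging -0.29 ± 0.03 on the log2 scale (SD of 3 probe sets), 1.22-fold lower. The remaining one, 1439314_at, read 56.5 and 52.6, under the floor. A ratio of this size is common here, since 35.6% of all measured genes lay at least as far from 0. Npas2, which can stand in for Clock, was not above the floor on either array, with 19.3 and 20.5 from 1421037_at and 13.9 and 4.9 from 1421036_at. No ratio is given for it.

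The 3 Per genes, whose proteins form the inhibitory complex, had means close to 0 whose sign depended on the setting. Per1 is also induced directly by glucocorticoids and cAMP. Its 1 probe set, 1449851_at, read 1425 and 1454, a log2 ratio of 0.029. Only 7.77% of all measured genes lay closer to 0. Per2 had the least certain value. Its brightest probe set 1417602_at read 732 on the control array against 935 on the null-labelled one, a log2 ratio of 0.35, whereas 1457350_at read 325 and 257, a ratio of -0.34. The mean of 0.0081 ± 0.49 (SD of 2 probe sets) is therefore the balance of opposite readings and does not show equal levels. Another Per2 probe set, 1417603_at, read 113 and 65.4, under the floor. For Per3, 1421087_at read 584 and 587 and 1441445_at read 188 and 211, which gave 0.087 ± 0.11 (SD of 2 probe sets). The latter lay just above the floor, and the remaining 4 Per3 probe sets, with signals from 10.1 to 169, lay under it on both arrays.

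The cryptochromes, the strongest repressors of the loop, were both higher on the null-labelled array. Cry1, which is active late in the cycle and carries the E-box pair printed above, read 643 on the control array against 951 on the null-labelled one from its 1 probe set 1433733_a_at. Its log2 ratio of 0.57 (1.48-fold higher) was the highest of the 9 genes and fell just short of 1.5-fold. After quantile normalization it was 0.60 and past 1.5-fold. Of all measured genes 10.6% lay at least as far from 0, and of the 2648 genes with a mean log2 signal within 0.5 of it, 11.6%. Cry2 read 723 and 849 from 1426383_at, a log2 ratio of 0.23, and 45.8% of all measured genes lay at least as far from 0. The 2 paralogs thus differed from each other by 0.33 on the log2 scale. The SD between probe sets of 1 gene, pooled over 3719 genes, was 0.29. A difference between 2 single probe sets carries the spread of both, so 0.33 does not stand out from it.

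The output activators Dbp and Tef, which carry the rhythm to metabolic genes, read brightly and differed little. Dbp cycles with a very large amplitude in most mouse tissues. Its probe set 1438211_s_at read 5057 and 4573 and 1418174_at read 3705 and 4152, so the probe sets went opposite ways by small amounts and the mean was 0.0096 ± 0.22 (SD of 2 probe sets). Tef read 5854 and 6294 from 1424175_at, a log2 ratio of 0.10. Its other probe sets did not give a ratio. Probe set 1438033_at was under the floor at 170 and 141. Probe set 1450184_s_at read 51.1 on the control array against 365 on the null-labelled one, the widest gap of the 24 probe sets, but only the null-labelled reading was above the floor. The ending _s_at marks a probe set that can hybridise to more than 1 transcript. With every probe set of Tef averaged and no floor, its log2 ratio would be 0.89.

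Among the genes of the set that were measured on both arrays, Bhlhe40 had the ratio farthest from 0. Tef was farther with no floor, as given above, and so was Npas2, whose probe sets all lay under the floor. Bhlhe40 encodes DEC1, a repressor that competes for E-boxes and is also induced by hypoxia, feeding and cytokines. Its 1 probe set, 1418025_at, read 3206 on the control array against 1993 on the null-labelled one, a log2 ratio of -0.69 (1.61-fold lower). Of all measured genes 6.70% lay at least as far from 0, and of the 1094 genes of like signal 7.22%. A second probe set to check it against was not on hand, as for Per1, Cry1 and Cry2. Bhlhe40 lies on the same chromosome as Kdm3a, with 238 protein-coding genes between them in the RefSeq order. No other gene of the set shares that chromosome.

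**Figure D2:**
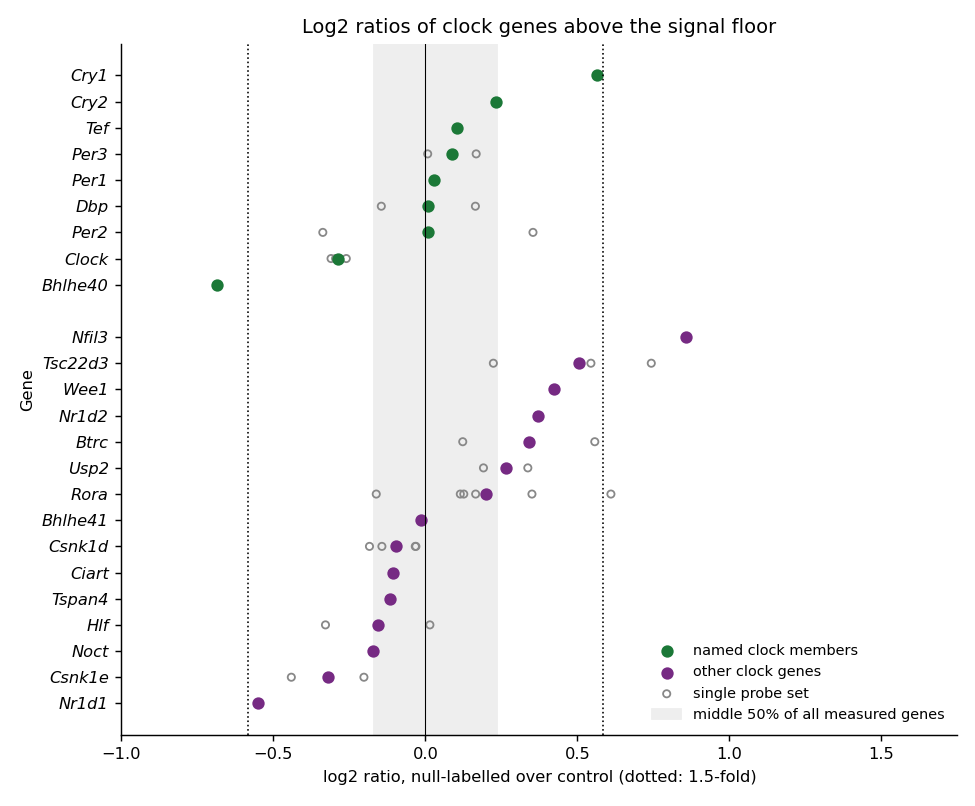
Log2 ratio (null-labelled over control) of the 9 measured clock members and 15 further clock genes, with filled points for genes, open points for single probe sets, dotted lines at 1.5-fold and the middle 50% of all measured genes shaded (-0.17 to 0.23). Bhlhe40 at -0.69 and Nfil3 at 0.86 lie past 1.5-fold, and Cry1 at 0.57 and Nr1d1 at -0.55 lie just inside it.

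Agreement between probe sets could be judged for 4 of the genes, Clock, Per2, Per3 and Dbp. Clock and Per3 kept 1 sign, while Per2 and Dbp did not. Over all genes with several measured probe sets, 40.7% disagreed in sign. The other 5 measured genes rest on 1 probe set each. The spread of 18 hybridisation controls, RNAs added in known amounts, was smaller, with a mean log2 ratio of -0.02 ± 0.09 (SD). Neither the spread of the controls nor that between probe sets of a gene includes variation between mice.

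A wider list of 20 clock genes held 1 gene past 1.5-fold. Of these, 15 were measured, with a median log2 ratio of -0.014, whose sign turned in 3 of 9 alternative settings. Only Nfil3 was at least 1.5-fold higher, none was at least 1.5-fold lower, 7 were above 0 and 8 below. Over all measured genes 3.38% were at least 1.5-fold higher, 9.73% were past 1.5-fold either way and 55.7% were above 0. The core activator Arntl could not be given a ratio, since 1425099_a_at read 178 and 225, on either side of the floor, and 1457740_at read 116 and 118. Arntl2 read 133 and 209 from its brighter probe set, also on either side of the floor. Rorb, Fbxl21 and Timeless were under the floor on both arrays.

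The largest value in the wider list belonged to Nfil3, the D-box repressor. Probe set 1418932_at gave 922 on the control array against 1669 on the null-labelled one, 1.81-fold higher (log2 ratio 0.86). Of all measured genes 3.79% lay at least as far from 0. Nr1d1, which encodes REV-ERBα, a repressor of Nfil3, Arntl and Cry1, was the lowest of the list. It read 1261 and 861 from 1426464_at, a log2 ratio of -0.55, just inside 1.5-fold. Its paralog Nr1d2 (REV-ERBβ) went the opposite way, with 7148 and 9233 from 1416958_at and a log2 ratio of 0.37. The ROR receptors, which activate through the sites that REV-ERB represses, were represented by Rora at 0.20 ± 0.26 (SD of 6 probe sets, of which 1 was below 0). With no floor, over its 9 probe sets, Rora had -0.33.

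The other output and feedback genes stayed within 1.5-fold. Hlf, a further D-box activator, had -0.16 ± 0.24 (SD of 2 probe sets). Bhlhe41, the paralog of Bhlhe40, read 287 and 284 from its measured probe set, a log2 ratio of -0.014. The ratio of Bhlhe40 minus that of Bhlhe41 was -0.67. Ciart, a repressor of CLOCK and BMAL1, had -0.11. The deubiquitinase Usp2, the tetraspanin Tspan4 and Tsc22d3 (GILZ) cycle in many mouse organs and had 0.26 ± 0.10 (SD of 2 probe sets), -0.12 and 0.50 ± 0.26 (SD of 3 probe sets). Tsc22d3 is also induced by glucocorticoids. The deadenylase Noct had -0.17 and the cell cycle kinase Wee1 0.42. The casein kinases that phosphorylate PER proteins, Csnk1d and Csnk1e, had -0.10 ± 0.07 (SD of 5 probe sets) and -0.32 ± 0.17 (SD of 2 probe sets), and the ubiquitin ligase subunit Btrc had 0.34 ± 0.31 (SD of 2 probe sets).

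The genes were also set out by the time of their known peak. The 11 genes that peak from the light phase to around dusk (Nr1d1, Nr1d2, Dbp, Tef, Hlf, Per1, Per2, Per3, Ciart, Usp2 and Bhlhe41) were all measured, with a mean log2 ratio of 0.0039 ± 0.24 (SD over genes). Of these, 7 were above 0 and 4 below, and none was past 1.5-fold. By comparison, 55.7% of all measured genes were above 0 and 9.73% were past 1.5-fold either way. Of 5 genes that peak late at night or around dawn, only Clock, Cry1 and Nfil3 were measured, with a mean of 0.38 ± 0.60 (SD over genes). The difference of the means was -0.37, and -0.045 with no floor. It rests on Cry1 and Nfil3, because Clock went the opposite way at -0.29. The most strongly cycling genes of this arm, Arntl and Npas2, were not measured. Of the measured members, Bhlhe40 at -0.69 and Cry2 at 0.23 were placed in neither list. The 1 measured member past 1.5-fold, Bhlhe40, therefore did not enter these means or counts.

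**Figure D3:**
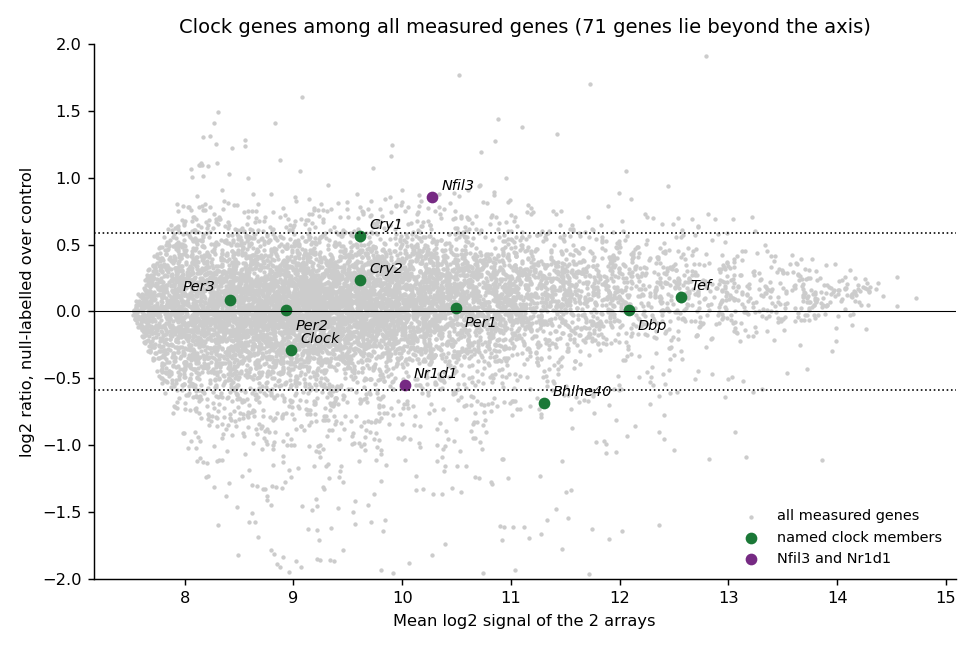
Log2 ratio (null-labelled over control) against the mean log2 signal of both arrays for all 9696 measured genes (grey), the 9 measured clock members (green) and Nfil3 and Nr1d1 (purple), with dotted lines at 1.5-fold. 71 genes lie beyond the vertical axis. Bhlhe40 and Nfil3 lie past the dotted lines, as do 9.73% of all measured genes, and Per1, Dbp and Tef lie near the middle of the grey cloud.

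Clock genes also respond to hormones, temperature and handling, and lists for these programmes were read beside them. Among 15 glucocorticoid-responsive genes, all measured, the median log2 ratio was 0.14, and 1 was at least 1.5-fold lower and none higher, beside 6.34% lower and 3.38% higher over all measured genes. The highest were the ubiquitin ligase Fbxo32 at 0.53 ± 0.31 (SD of 3 probe sets) and the chaperone Fkbp5 at 0.52 ± 0.39 (SD of 2 probe sets), and the lowest the metallothioneins Mt1 at -1.63 and Mt2 at -0.49. Among the 13 measured of 18 immediate early genes the median was -0.05 and none was past 1.5-fold. Crem, which also acts in cAMP signalling, had 0.53 ± 0.03 and Btg2 0.32 ± 0.14 (SD of 2 probe sets each), while Nr4a3 and Ier3 had -0.43 and -0.34. Among the 11 measured of 12 temperature-responsive genes the median was 0.39, and 2 were at least 1.5-fold higher, beside 3.38% of all measured genes. These were the inducible HSP70 genes Hspa1b at 1.91 ± 0.36 (SD of 3 probe sets) and Hspa1a at 1.70, near-identical genes whose probe sets may share signal. Hspd1 and Hspa5 had -0.08 and -0.20 ± 0.41 (SD of 3 probe sets). The part of these programmes in the values of Cry1, Nfil3 or Bhlhe40 was not tested.

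Markers of skeletal muscle were present on both arrays, while marker transcripts of some other cell types differed between them. All 15 skeletal muscle markers were measured and lay between -0.04 and 0.26, with a median of 0.18. The Kdm3a transcript itself read 406 on the control array against 488 on the null-labelled one, so it was not lower under the null label, and the sources used here do not say whether its probe set falls in the disrupted stretch of the gene. Directions therefore rest on the labels.

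Markers of fat and liver were lower, as Bhlhe40 was. All 8 measured of 12 adipocyte markers were below 0, 7 of them at least 1.5-fold lower, and the summed signal of the list was 82621 on the control array against 28682 on the null-labelled one. Of the 8 measured of 11 brown adipocyte markers, 7 were below 0 and 4 were at least 1.5-fold lower, with sums of 83569 and 38437. By comparison, 6.34% of all measured genes were at least 1.5-fold lower. Hepatocyte markers summed to 22849 and 3124, and 4 of them (Apob, Fgb, Ahsg and Tat) were under the floor on both arrays. Only 2 of the 12 were measured on both, Alb at -2.87 and Cyp2e1 at -1.35. Macrophage and leukocyte markers summed to 9276 and 7548, with Cd3e and Cd79a under the floor on both. They went both ways: of 8 measured, 3 were above 0 and 5 below, with 2 at least 1.5-fold lower. Endothelial markers summed to 9112 and 9193 but went both ways, with Kdr, the 1 member past 1.5-fold, at signals of 712 and 356 and Emcn at a log2 ratio of 0.55. The part of these cells in the Bhlhe40 value was not tested. In whole muscle, fewer cells of a type and less RNA per cell cannot be told apart.

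Markers of neutrophils, red cells and nerve lay mostly in the direction of Cry1 and Nfil3. Neutrophil markers summed to 950 on the control array against 8643 on the null-labelled one, with Cxcr2 under the floor on both, and only Ngp was measured on both, at 2.63. Erythroid markers summed to 617 and 1710, with Hba-a1 and Epb42 under the floor on both. Of the 7 measured Schwann cell and nerve markers 6 were above 0, 3 of them at least 1.5-fold higher. The other, S100b, was lower at -2.46, farther from 0 than any other gene of the list. The list summed to 19865 and 26743. By comparison, 55.7% of all measured genes were above 0 and 3.38% were at least 1.5-fold higher. All 8 fibroblast markers were above 0 and none was past 1.5-fold, with a median of 0.15 beside 0.18 for the skeletal muscle markers and sums of 72155 and 81727. The part of these cells in the Cry1 and Nfil3 values was not tested.

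**Figure D4:**
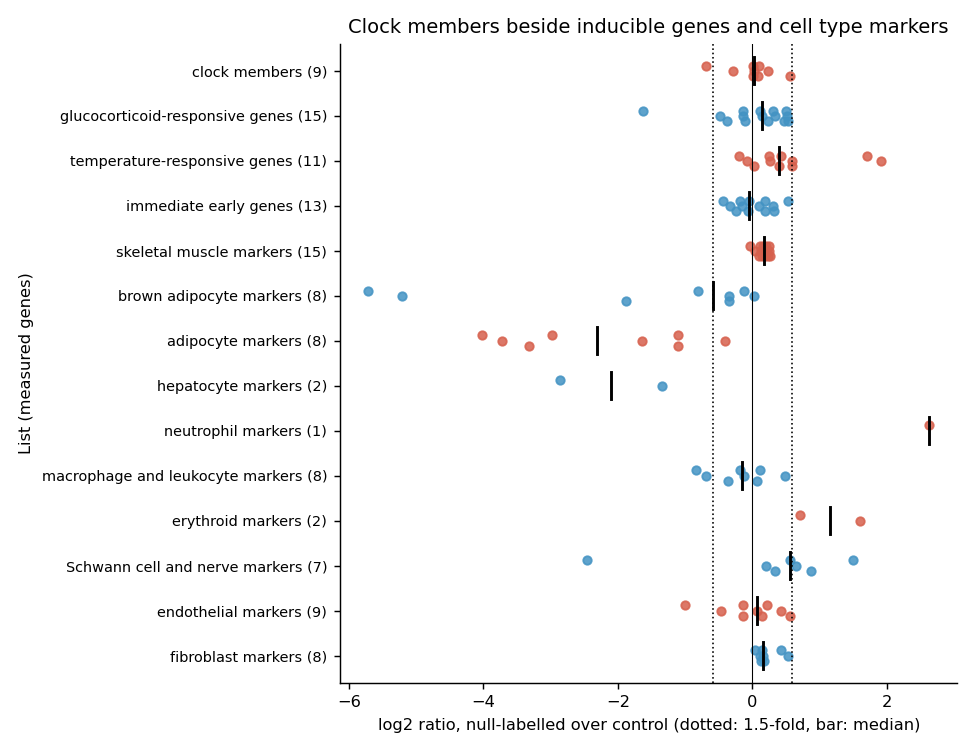
Log2 ratio (null-labelled over control) of each measured gene in the clock set, in 3 lists of inducible genes and in 10 lists of cell type markers, with bars at the medians and dotted lines at 1.5-fold; the number of measured genes is in brackets. The clock set lies between -0.69 and 0.57 with a median of 0.029, while the adipocyte markers reach -4.02 and the brown adipocyte markers -5.71.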

How the data were processed

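Total RNA from skeletal muscle, pooled from 3 mice per genotype, was read on 2 arrays. The deposited values are MAS5 signal intensities per probe set on a linear scale; the submitters' processing notes name MAS5, while the sources used here state neither its version nor a genome build. The 2 deposited columns shared a 2% trimmed mean of 500, so the authors had brought them to 1 level, and they were used unchanged. MAS5 signals near background are noisy, and no detection calls were used. Of 45037 non-control probe sets, 34945 had 1 symbol in the platform annotation, 932 several, and 9160 were unnamed here. All 24 member probe sets matched their symbol by gene identifier in RefSeq genes of GRCm38.p6. Columns of other samples numbered 0.

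The floor of 182 is the 60th percentile of all non-control signals. Ratios were taken as log2, with no pseudocount. A gene was counted at 1.5-fold or more. Groups came from each sample's source label. With 1 array per genotype no test was run, and the number of arrays limits the precision. The genes named are the members, the genes of the wider clock list (2 of its genes are not reported here), the 2 highest and 2 lowest of each inducible list, and Kdm3a; single cell type markers and contrasts of paralogs were named after their values were seen. The members and lists were chosen with earlier results of these data known. The procedure was tested on simulated data. The 8 alternatives were quantile normalization, a median log2 ratio of 0, loess (span 0.4), a floor at the 75th percentile, no floor, a pseudocount of 50, the brightest probe set, and probe sets with a plain _at ending. An alternative added after seeing the data set signals under the floor to the floor. Python 3.11.15, numpy 2.4.6, pandas 2.3.3 and statsmodels 0.14.6 were used.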

Additional observations from a re-analysis of the deposited data

How the results depend on the processing

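No paired analysis was possible because each genotype has 1 array. A value was taken as shifted when it moved by more than the SD of 0.29 between probe sets of a gene, divided for a list by the square root of its genes, and a count when it moved by over 1.5 times. Of 80 member values under the 9 alternatives, 76 stayed within that spread and none past 1.5-fold reversed. Bhlhe40 ranged from -0.77 to -0.67, Cry1 from 0.52 to 0.60, Clock from -0.33 to -0.24 and Nfil3 from 0.81 to 0.88. Per1, Per2, Per3 and Dbp turned sign in 2, 3, 1 and 4 alternatives, so they carry no direction, and the median of the members turned sign in 3. The count of members past 1.5-fold was 2 after quantile normalization and 3 with no floor, where Npas2 and Tef passed through dim probe sets. Among the other clock genes the count was 2 with the median ratio set to 0 and after loess, where Nr1d1 passed, and 4 with no floor. Their median was -0.10 with no floor, 0.20 with dim signals set to the floor, 0.020 after quantile normalization and 0.012 with the higher floor. Rora and Bhlhe41 turned sign in 1 and 2 alternatives, Rora to -0.33 with no floor. The contrast of daytime-peaking against night-peaking genes was -0.045 with no floor, and between -0.40 and -0.27 in the other alternatives. Signals under the floor limit Npas2, Arntl and most Per3 probe sets.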
